A study of Mus musculus with 6 samples.

Results

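The C5a receptor locus was taken as the H3K27ac peaks that overlap chr7:15930000-16062000 of mouse build mm39, a window of 132 kb named for C5ar1 and C5ar2. It held 15 peaks in Bmal1KO, 15 in Mfp2KO and 14 in wild type (WT), of 25666, 24477 and 29276 peaks in these lists. Peaks of different lists that overlap by at least 1 bp were merged, which gave 22 regions in the window of 39753 in all. The window was selected on the normalized tag counts of its peaks in these lists, so the values below describe it and none was tested.

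The cells were RAW264.7, a macrophage-like mouse line, profiled by ChIP-seq for acetylation of histone H3 at lysine 27 (H3K27ac). The groups were Bmal1 knockout, Mfp2 knockout and unmodified cells labelled wild-type or naive, each with 1 ChIP library and 1 input library, and the labels name no stimulus. The ChIP libraries held 12.5 M tags in Bmal1KO, 15.8 M in Mfp2KO and 15.8 M in WT. A genotype thus has no replicates here, and whether each knockout line came from 1 clone is not stated in the labels. Whether macrophage genes, Bmal1 or the gene for MFP2 carry peaks was not analysed here, because the gene table used is of another build than the peaks.

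C5a is the small fragment released when complement protein C5 is cut, and it attracts and activates macrophages and neutrophils. C5AR1 is its G protein-coupled receptor. C5AR2 binds the same ligand but does not couple to G proteins, and it recruits β-arrestin. H3K27ac marks active promoters and enhancers. BMAL1, encoded by Bmal1, pairs with CLOCK to bind E-box sequences, and MFP2 is a peroxisomal β-oxidation enzyme. In the RefSeq gene order C5ar1 lies between C5ar2 and Ccdc9. Dhx34, an RNA helicase gene, lies beyond C5ar2. Inafm1, Bbc3 and Sae1 follow Ccdc9 on the other side. Bbc3 encodes PUMA, a BH3-only protein that promotes apoptosis, and Sae1 encodes a subunit of the SUMO-activating enzyme. The rule for the window places C5ar1 in a stretch of 14 kb that starts 50 kb above the window's lower edge, called the C5ar1 interval here. No peak was assigned to another gene.

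The sequences just before the annotated starts of the receptor genes are shown as the stretches in which E-box letters, those BMAL1 is known to bind, were searched. They are the 250 bases before a RefSeq start in build GRCm38.p6, on the minus strand, at chr7:16259339-16259588 for C5ar1 and chr7:16244155-16244404 for the first of the listed C5ar2 starts. These positions are on another build and cannot be set beside the peak positions. Capitals mark the letters GGAAGT, the core bound by ETS factors such as PU.1, or ACTTCC, the same letters on the opposite strand.
C5ar1: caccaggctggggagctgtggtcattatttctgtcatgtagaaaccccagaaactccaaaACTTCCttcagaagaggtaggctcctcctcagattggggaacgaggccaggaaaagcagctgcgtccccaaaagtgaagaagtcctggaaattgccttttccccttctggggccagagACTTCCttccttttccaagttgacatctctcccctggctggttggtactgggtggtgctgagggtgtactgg
C5ar2: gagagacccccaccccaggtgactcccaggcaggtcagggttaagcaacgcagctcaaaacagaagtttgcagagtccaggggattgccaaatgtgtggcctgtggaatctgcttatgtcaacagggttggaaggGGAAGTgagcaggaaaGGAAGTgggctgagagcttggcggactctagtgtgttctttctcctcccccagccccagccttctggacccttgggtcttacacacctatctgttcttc
Each stretch held 2 such matches, which do not overlap. They were searched on both strands, together with the E-box CACGTG and the AP-1 motif TGACTCA, which were not found in these windows. None of the 3 motifs was found before the second C5ar2 start. Of 32851 RefSeq promoter stretches of this length, 19.7% held the ETS core, 6.02% the E-box and 4.46% the AP-1 letters. A match is a description of letters and not a binding site, and the motifs were chosen with the sequences seen.

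Almost all the acetylation of the locus lay outside the C5ar1 interval. Values are normalized tag counts, which are ChIP tags in a peak scaled by the authors to 10 M tags per library. The peaks of the window summed to 4026 tags in Bmal1KO, 6345 in Mfp2KO and 4318 in WT. The C5ar1 interval held 0.437% of these tags in Bmal1KO, 0.610% in Mfp2KO and 0.660% in WT. The side of higher coordinates, toward Ccdc9, held 85.7% in Bmal1KO, 71.9% in Mfp2KO and 87.3% in WT. The side of lower coordinates, toward C5ar2, held 13.8% in Bmal1KO, 27.5% in Mfp2KO and 12.1% in WT. The name of the locus therefore follows a gene whose own interval carried weak peaks, and the strong peaks are given by position.

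**Figure D1:**
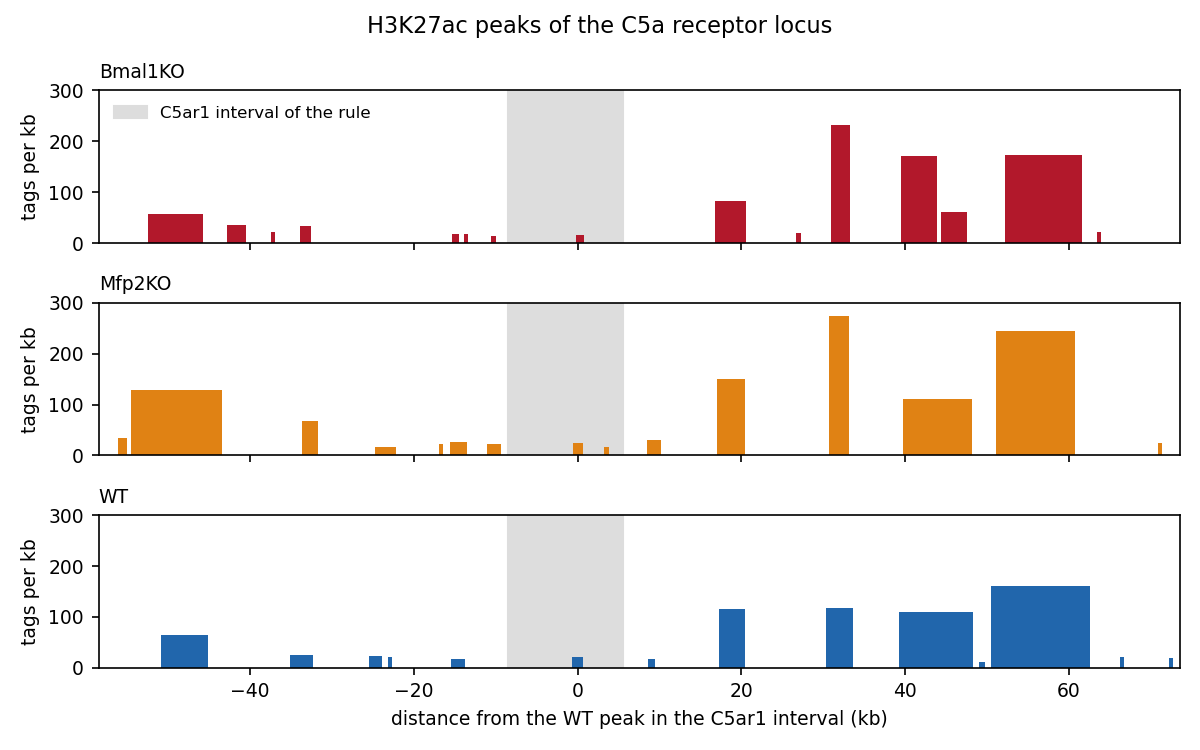
H3K27ac peaks of the locus in Bmal1KO, Mfp2KO and WT, 1 library each. The horizontal axis is the distance in kb from the WT peak in the C5ar1 interval (grey), each bar spans 1 peak, and its height is normalized tags per kb. The tallest bars stand on the right in each list, and the bar near -48.9 kb is taller and wider in Mfp2KO (129 tags per kb) than in Bmal1KO (57.1) or WT (64.6).

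Within the C5ar1 interval each list had a weak peak at nearly the same place. In Bmal1KO it lay at chr7:15988229-15989292, with 17.6 tags over 1063 bp. In Mfp2KO it lay at chr7:15987963-15989101, with 27.6 tags over 1138 bp. In WT it lay at chr7:15987827-15989128, with 28.5 tags over 1301 bp. On the authors' scale the values of Mfp2KO and WT were close and that of Bmal1KO lower. Scaled to the tags in all peaks of each list, both knockouts were lower, at 0.640 times WT in Bmal1KO and 0.656 times in Mfp2KO. The ratio to WT was 0.618 in Bmal1KO, with a 95% counting interval of 0.352 to 1.05, and 0.968 in Mfp2KO (0.631 to 1.52). These intervals are exact conditional intervals on the tags as counted. They cover counting error only, describe these libraries and are no test of the genotypes. Enrichment over input, as the authors' fold per peak, was 5.66 in Bmal1KO, 5.89 in Mfp2KO and 4.03 in WT, against a required 4-fold, so the WT peak passed by little. By tags the peak stood above 35.6% of all peaks in the Bmal1KO list, 36.0% in the Mfp2KO list and 43.3% in the WT list.

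Mfp2KO had a further peak in the interval at chr7:15991737-15992368, with 11.1 tags and 4.74-fold enrichment, where Bmal1KO and WT listed none. A peak needed 9 tags in a window of 500 bp in Bmal1KO and 10 in Mfp2KO and WT, per the file headers. That is 7.18, 6.34 and 6.33 normalized tags in the 3 libraries, and a peak also had to reach 4-fold over input. A place without a listed peak can therefore still hold tags, above that level where its input is high.

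Just outside the interval toward Ccdc9, a short peak was larger in Mfp2KO. At chr7:15996975-15998713 Mfp2KO had 52.3 tags over 1738 bp and WT had 14.2 tags over 820 bp, with no Bmal1KO peak. The Mfp2KO to WT ratio was 3.68 (2.34 to 6.35), and 90.1% of all regions called in both lists had a lower ratio. Scaled to the tags in all peaks of each list, Mfp2KO was at 2.49 times WT. Tags per kb were 30.1 in Mfp2KO and 17.3 in WT.

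The strongest region of the locus, and its widest WT peak, lay 56.5 kb from the C5ar1 peak on the Ccdc9 side. In Bmal1KO it had 1633 tags over 9405 bp (chr7:16040610-16050015). In Mfp2KO it had 2374 tags over 9721 bp (chr7:16039521-16049242). In WT it had 1966 tags over 12154 bp (chr7:16038939-16051093). Bmal1KO was lowest and Mfp2KO highest in tags, while both knockout peaks were shorter than that of WT. The ratio to WT was 0.831 in Bmal1KO (0.785 to 0.879) and 1.21 in Mfp2KO (1.15 to 1.27). Both lay near the middle of all regions called in both lists, of which 49.1% had a lower ratio in Bmal1KO and 45.1% in Mfp2KO. Tags per kb were 174 in Bmal1KO, 244 in Mfp2KO and 162 in WT. The Bmal1KO peak began 1671 bp and ended 1078 bp inside the WT peak, and the Mfp2KO peak began 582 bp and ended 1851 bp inside it. By tags this peak ranked 45 in the Bmal1KO list, 61 in the Mfp2KO list and 19 in the WT list.

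Next to it, 43.8 kb from the C5ar1 peak, tags were nearly equal in the 3 genotypes on the authors' scale. Scaled to the tags in all peaks of each list, Mfp2KO was at 0.643 times WT and Bmal1KO at 0.970 times. Bmal1KO had 930 tags, split into a peak of 742 tags at chr7:16028000-16032334 and one of 187.9 tags at chr7:16032903-16035987. Mfp2KO had 944 tags in 1 peak at chr7:16028200-16036627, and WT had 994 tags in 1 peak at chr7:16027713-16036764. The ratio to WT was 0.936 in Bmal1KO (0.867 to 1.01) and 0.949 in Mfp2KO (0.884 to 1.02). The part that Bmal1KO called as its first peak had 171 tags per kb, against 60.9 in its second.

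The compact region 31.9 kb from the C5ar1 peak was higher and narrower in both knockouts. Bmal1KO had 552.9 tags over 2379 bp (chr7:16019414-16021793) and Mfp2KO had 671.7 tags over 2451 bp (chr7:16019225-16021676). WT had 387.5 tags over 3321 bp (chr7:16018751-16022072). Both knockout values lay above WT, with ratios of 1.43 in Bmal1KO (1.28 to 1.59) and 1.73 in Mfp2KO (1.57 to 1.92). The density was 232 tags per kb in Bmal1KO and 274 in Mfp2KO, against 117 in WT. Fold over input was 20.1 in Bmal1KO, 21.3 in Mfp2KO and 13.4 in WT, the highest of the window in each knockout list. The comparisons share the WT library, so a low WT value alone raises both ratios. Among all regions called in both lists, 81.4% had a lower ratio in Bmal1KO and 61.9% in Mfp2KO.

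At 18.6 kb from the C5ar1 peak, all 3 lists had a peak of similar extent. It held 314.7 tags over 3773 bp in Bmal1KO, 508.9 tags over 3391 bp in Mfp2KO and 377.7 tags over 3246 bp in WT. Its ratio to WT was 0.833 in Bmal1KO (0.732 to 0.948) and 1.35 in Mfp2KO (1.21 to 1.50). Input was also higher here than elsewhere in the window, at 12.9 tags per kb in Bmal1KO, 20.4 in Mfp2KO and 16.0 in WT per 10 M ChIP tags. Over all peaks the median input was 4.31 per kb in Bmal1KO, 5.61 in Mfp2KO and 3.99 in WT. Fold over input was 6.45 in Bmal1KO, 7.37 in Mfp2KO and 7.29 in WT. The part of the input in the tag differences was not tested.

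**Figure D2:**
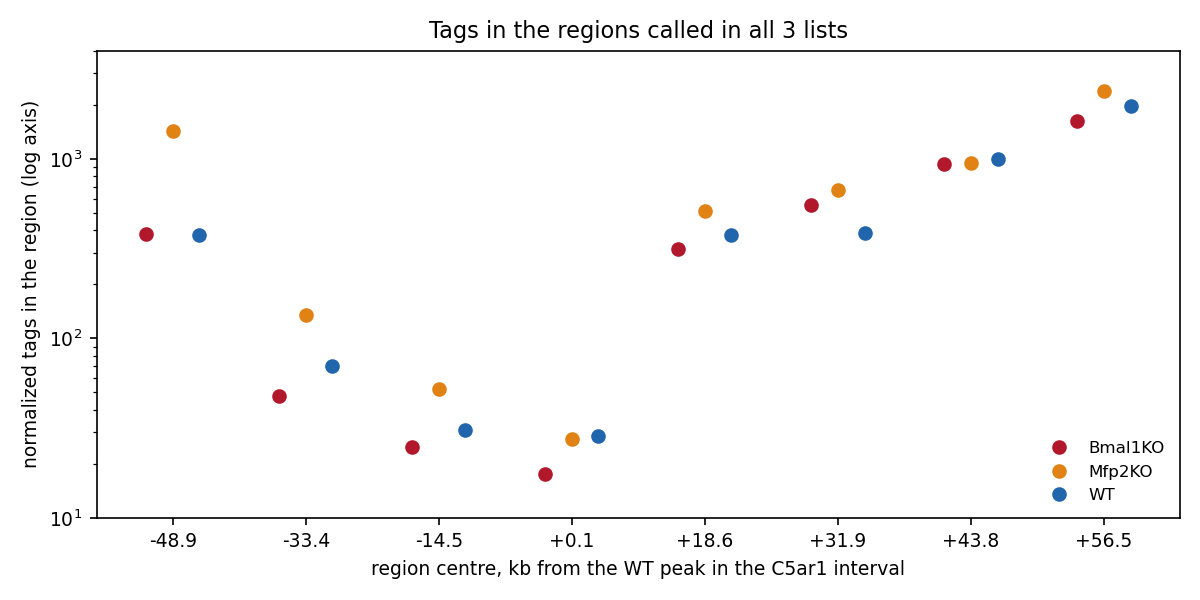
Normalized tags (log axis) in the 8 regions of the window called in all 3 lists, placed by the distance in kb of their centre from the WT peak in the C5ar1 interval. Each point is 1 library. The regions at that peak, at -14.5 kb and at -33.4 kb hold the fewest tags. Mfp2KO stands far above Bmal1KO and WT at -48.9 kb.

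On the side of lower coordinates, where Dhx34 lies beyond C5ar2, the locus differed most in Mfp2KO. The regions of this side were not assigned to either gene. The main region there, 48.9 kb from the C5ar1 peak, had 382.1 tags over 6688 bp in Bmal1KO (chr7:15936040-15942728). Mfp2KO had 1424 tags over 11059 bp (chr7:15934008-15945067), and WT had 374.9 tags over 5806 bp (chr7:15937571-15943377). The ratio to WT was 1.02 in Bmal1KO (0.902 to 1.15) and 3.80 in Mfp2KO (3.47 to 4.16). The Mfp2KO peak began 3563 bp before and ended 1690 bp after the WT peak, and its density was also higher, with 129 tags per kb against 64.6 in WT. Fold over input was 12.1 in Mfp2KO and 7.33 in WT, and input was 10.7 and 8.81 tags per kb. Of the 16682 regions called in both lists, 90.8% had a lower Mfp2KO to WT ratio. Of the 9727 such regions with at least 100 WT tags, 96.5% did.

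A smaller region 33.4 kb from the C5ar1 peak went the same way in Mfp2KO. It had 47.9 tags in Bmal1KO, 135.3 in Mfp2KO and 69.7 in WT, over 1386, 1994 and 2718 bp. The ratio was 0.687 in Bmal1KO (0.493 to 0.950) and 1.94 in Mfp2KO (1.54 to 2.47). Among all regions called in both lists, 67.5% had a lower Mfp2KO to WT ratio. The region at 14.5 kb, the nearest to the C5ar1 interval that every list held on this side, had 24.8 tags in Bmal1KO, 52.0 in Mfp2KO and 31.0 in WT. Its ratio was 0.799 in Bmal1KO (0.491 to 1.28) and 1.68 in Mfp2KO (1.16 to 2.44), with 60.4% of regions lower in Mfp2KO. At 23.8 kb Mfp2KO had 43.7 tags in 1 peak and WT 46.2 tags in 2 peaks, a ratio of 0.946 (0.671 to 1.33), and Bmal1KO had no peak. Scaled to the tags in all peaks of each list, Mfp2KO was at 1.31 times WT at 33.4 kb. On that scale it was at 1.14 times at 14.5 kb and 0.641 times at 23.8 kb.

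Of the 22 regions, 8 were called in every list, and 5 of these 8, each with at least 374.9 WT tags, carried the signal. These 5 held 94.7% of the window's tags in Bmal1KO, 93.3% in Mfp2KO and 94.9% in WT. The 14 regions missing from at least 1 list had 8.23 to 81.8 tags in the lists that held them. They made up 3.04% of the tags in Bmal1KO, 3.29% in Mfp2KO and 2.06% in WT. Bmal1KO alone had 4 regions, of which the largest was at chr7:15945701-15948018, with 81.8 tags. At 4.06-fold over input, this region passed the required 4-fold by little. It is within 1 kb of the end of the wide Mfp2KO peak. Mfp2KO alone had 4 regions, of 40.9, 12.7, 11.1 and 11.1 tags. WT alone had 3, of 11.1, 9.18 and 8.23 tags. Both knockouts and not WT had 1, at chr7:15977468-15979087, with 9.17 tags in Bmal1KO and 36.8 in Mfp2KO.

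Counts of missing peaks were read against the whole lists. In WT, 6 of the 14 peaks had no Bmal1KO peak, where the share over all WT peaks was 38.9%, and 3 of the 14 had no Mfp2KO peak, where it was 41.4%. In the other direction, 5 of 15 Bmal1KO peaks had no WT peak, against 23.6% of that list, and 5 of 15 Mfp2KO peaks, against 25.4%. By tags the members divided as follows. Of the 5 WT peaks under 20 tags, 5 had no Bmal1KO peak and 3 had no Mfp2KO peak, where the whole WT list gave 82.0% and 83.6% for peaks under 20 tags. Of the 9 stronger ones, 1, with 35.8 tags, had no Bmal1KO peak and 0 had no Mfp2KO peak, where the list gave 13.7% and 16.8%.

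Regions past a ratio of 2-fold were counted beside the shares over all regions, and 8 or 10 regions are too few to tell the locus from those shares. Of the 8 regions called in Bmal1KO and WT, 0 were more than 2-fold higher and 0 more than 2-fold lower. Over all 17614 such regions 5.47% were higher and 21.8% lower. Of the 10 called in Mfp2KO and WT, 2 were more than 2-fold higher and 0 lower, and over all 16682 regions 31.0% were higher and 18.4% lower. The median ratio of the locus regions was 0.832 in Bmal1KO, beside 0.843 over all regions, and 1.50 in Mfp2KO, beside 1.35. The medians of the locus thus lay near those of all regions, and no difference from them was tested.

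**Figure D3:**
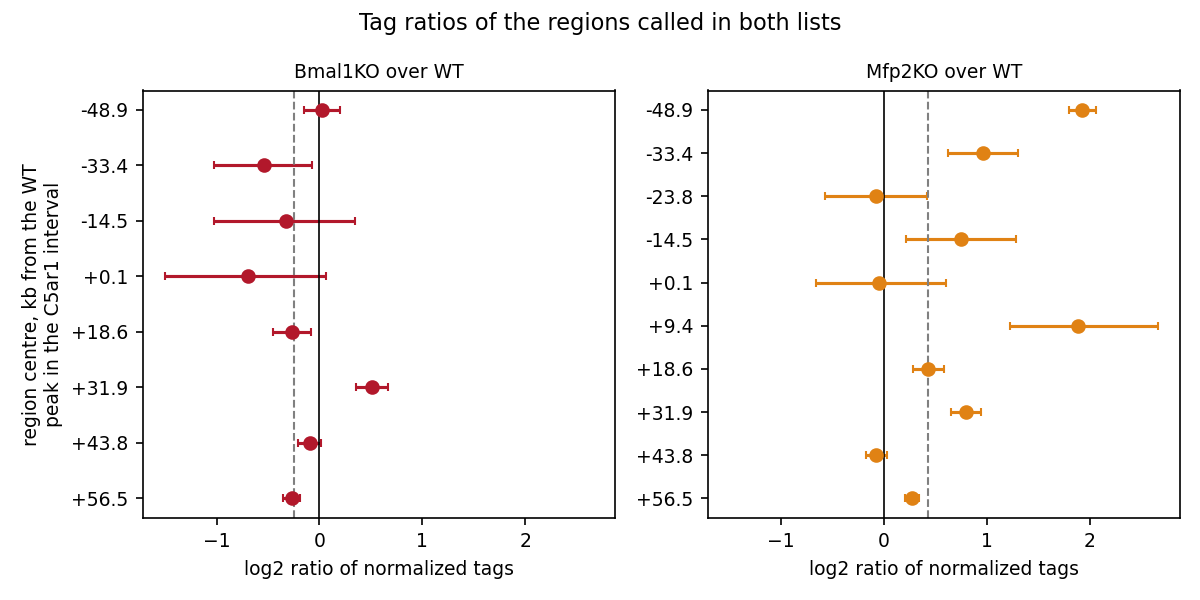
Log2 ratio of normalized tags to WT, with 95% counting intervals, for the regions called in Bmal1KO and WT (8, left) and in Mfp2KO and WT (10, right). The solid line marks no difference and the dashed line the median of all regions of the genome called in both lists. In Bmal1KO the region at +31.9 kb lies highest (0.51), and in Mfp2KO those at -48.9 kb (1.92) and +9.4 kb (1.88).

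Summed over the window, tags in Bmal1KO were close to WT and those in Mfp2KO higher on the authors' scale. The log2 ratio to WT was -0.10 in Bmal1KO (-0.15 to -0.05) and 0.56 in Mfp2KO (0.51 to 0.60). Called length was 38.0 kb in Bmal1KO, 48.9 kb in Mfp2KO and 43.9 kb in WT, and density was 106, 130 and 98.5 tags per kb. Input over the same peaks was 8.77 tags per kb in Bmal1KO, 10.3 in Mfp2KO and 8.53 in WT. More of the Mfp2KO library lay in peaks, 57.15% against 37.35% in Bmal1KO and 38.71% in WT in the authors' deposited headers. Scaled to the tags in all peaks of each list, every log2 ratio moves by -0.56 in Mfp2KO and by 0.05 in Bmal1KO. The window was then at -0.0069 in Mfp2KO, the strongest region at 0.818 times WT and the region at 18.6 kb at 0.913 times. The region at 48.9 kb on the side of lower coordinates stayed higher in Mfp2KO, at 2.57 times WT, and that at 31.9 kb was at 1.17 times. In Bmal1KO the region at 31.9 kb was at 1.48 times WT on that scale.

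Beside windows of its size, the locus had high summed tags, on which it was selected, and tag ratios near the middle. Windows of the same length were tiled along each chromosome, and 2432 of them had at least 5 WT peaks. The summed tags of the locus were above those of 99.7% of these windows in Bmal1KO, 99.4% in Mfp2KO and 99.9% in WT. The locus was framed around its peaks and the tiled windows were not, which favours the locus. It was also selected on these tag counts, so its place in summed tags follows from that choice. Its tag ratio was above that of 59.3% of windows in Bmal1KO and 57.8% in Mfp2KO. The median window had a log2 ratio of -0.24 in Bmal1KO and 0.40 in Mfp2KO. Called length relative to WT was higher than in most windows. It was 0.866 times WT in Bmal1KO, beside a median of 0.676, and 1.11 times in Mfp2KO, beside 0.675, which exceeded 80.5% and 92.6% of windows. In Mfp2KO it was 1.70 times WT below the C5ar1 interval, 1.36 times in it and 0.866 times above it. The windows were not matched to the locus in tags. Tags per kb relative to WT were lower than in most windows. They were 1.08 times WT in Bmal1KO, beside a median of 1.20, and exceeded 36.3% of windows. In Mfp2KO they were 1.32 times WT, beside 1.86, and exceeded 22.4%.

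**Figure D4:**
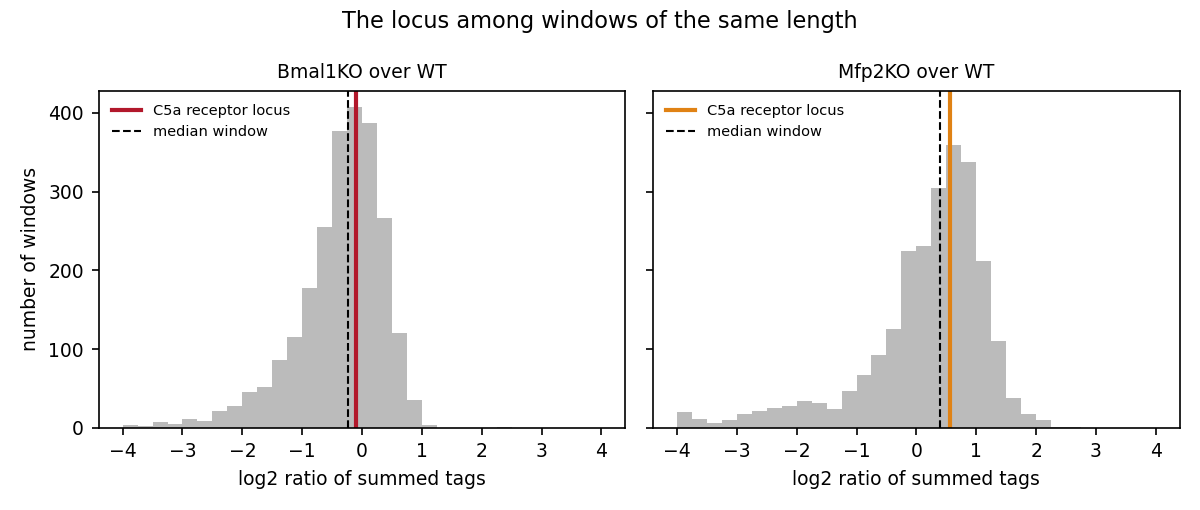
Log2 ratio of summed normalized tags to WT in windows of 132 kb with at least 5 WT peaks, for Bmal1KO (left) and Mfp2KO (right), with values beyond the axis drawn in the end bars. The coloured line is the locus (-0.10 and 0.56) and the dashed line the median window (-0.24 and 0.40). The locus lies inside the bulk of the windows in both panels.

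At the edges of the window, the outermost members were an Mfp2KO peak of 40.9 tags at chr7:15932325-15933490 and a WT peak of 9.18 tags at chr7:16060705-16061205. The nearest peaks left out on the lower side had 186.3 tags in Bmal1KO, 276.9 in Mfp2KO and 125.4 in WT, and lay 19496, 19632 and 20038 bp away. On the higher side the nearest peak left out lay 58315 bp away in Bmal1KO, 13856 bp in Mfp2KO and 21621 bp in WT. With peaks of all lists joined within 10 kb, the locus formed 1 cluster.

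Among 1932 clusters of at least 20 kb with a peak in every list, the closest pair of log2 ratios to WT was on chromosome 11 (72830895-72853548), with 272.1 tags in Bmal1KO, 428 in Mfp2KO and 292 in WT. Its distance in the plane of the 2 log2 ratios was 0.0011. Next came chromosome 11 (96653888-96681553), at 0.031, and chromosome 1 (176626495-176665061), at 0.036. The likeness rests on 3 libraries and on ratios that share WT. These clusters were not assigned to genes.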

How the data were processed

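H3K27ac ChIP-seq of RAW264.7 cells is represented by 3 peak lists, 1 per ChIP library, with groups from the sample titles. Per the file headers, these came from findPeaks of HOMER (histone style), run by the authors on each ChIP library with its own genotype's input, and a peak had to reach 4-fold over input at a p-value of 0.0001. Per the submitters' processing notes, the build was mm39 and the tools included HOMER 5.1, MACS3 3.0.3, BWA 0.7.19-r1273 and fastp 1.0.1, as well as Picard 3.4.0 and SAMtools 1.23, with no role or order given. Handling of duplicate reads is not given in the sources.

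The normalized tag count is a deposited signal, scaled by the authors to 10 M tags per library. Input tags, also a deposited signal, were brought to the ChIP depth with the scaling in each list, and are given per 10 M ChIP tags. The deposited fold over input is a ratio after depth scaling. The authors' p-value and score per peak were not used for results. Lengths are as deposited.

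Peaks overlapping the window by at least 1 bp were members. Merging, sums and ratios were computed with Python 3.11.15, pandas 2.3.3, numpy 2.4.6 and scipy 1.17.1, and tested on simulated data. Depth was 12.5 M to 15.8 M ChIP tags. Tags were returned to counts as sequenced for 95% exact conditional intervals. No test between genotypes was possible with 1 library each. Members, lists and thresholds were chosen with earlier results of these data known, and the 100-tag and 20-tag limits and the windows widened by 25 kb after the values were seen. Alternatives were other scalings, a 6-fold limit, input subtraction, whole peaks only and other windows. Lists of complement genes and cell type markers were drawn up but not analysed here, since the RefSeq table is GRCm38.p6, and it was used for gene order and promoter sequence only. The rule for named genes took every gene overlapping the window, and without coordinates on mm39 it could only be followed by gene order.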

Additional observations from a re-analysis of the deposited data

How the results depend on the processing

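Of 50 values under other settings, 28 stayed within the counting interval (tags and tags per kb), within 1.5 times (numbers of peaks) or unchanged (called length, which has no counting interval). A further 17 moved by more than that, and 5 fell on the other side of no difference from WT. Every member lay wholly inside the window, so whole peaks only and lengths clipped to the window could not change a value. Those settings are counted among the 28, and all the unchanged called lengths came from them. The tag ratio to WT (log2) changed direction in Bmal1KO relative to the median region (0.14, beside -0.10 as reported). In Mfp2KO it did so as a share of the tags in all peaks, though only to near no difference (-0.0069, beside 0.56). Relative to the median region it was 0.12 in Mfp2KO. With the window widened by 20 kb it was -0.036 in Bmal1KO and 0.62 in Mfp2KO, since this edge takes in the neighbouring knockout peaks and misses the WT one by its construction. In the C5ar1 interval alone it was -0.70 in Bmal1KO (-1.51 to 0.067) and 0.44 in Mfp2KO (-0.14 to 1.03). The Mfp2KO sum there includes its further peak of 11.1 tags, which WT did not list.

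The called length ratio, 0.866 in Bmal1KO, was 0.899 for peaks of at least 6-fold, 0.919 and 0.874 with 20 and 25 kb added, and 0.817 in the C5ar1 interval. In Mfp2KO, 1.11 became 1.17, 1.18, 1.12 and 1.36. In the C5ar1 interval the ratio of tags per kb changed direction to 0.756 in Bmal1KO and was 0.999, near no difference, in Mfp2KO. As a share of peak tags it changed direction to 0.893 in Mfp2KO, and it was 1.27 there at 6-fold. At 6-fold, 8, 8 and 7 peaks remained in Bmal1KO, Mfp2KO and WT. Where no scaling or window is named, the cause was not tested. No paired analysis was possible because each genotype has 1 ChIP library, and no library could be left out. The weakest peaks had 11.0 tags as counted in Bmal1KO, 17.5 in Mfp2KO and 13.0 in WT, beside call thresholds of 9, 10 and 10. The part of depth in the calls of weak peaks was not tested.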
